A study of Mus musculus with 6 samples.

Results

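Metallothioneins and zinc transporters were examined in mesenchymal stromal cells of mouse bone marrow, cultured from flushed femurs; such cultures of connective tissue precursors are known to carry macrophages along. The set comprised 9 genes, chosen by name from the 55401 genes of the deposited table: the metallothioneins Mt1, Mt2 and Mt3, their transcription factor Mtf1, the zinc exporters Slc30a1 and Slc30a4, and the zinc importers Slc39a8, Slc39a10 and Slc39a14. RNA was sequenced from 3 libraries of Nlrp3 knockout cultures exposed to LPS and 3 libraries of wild-type (WT) cultures exposed to LPS. Both groups had the strain label C57/B6J and received 3 µg/mL LPS (lipopolysaccharide, a bacterial outer membrane component) for 24 h, so that the comparison sets one genotype against the other in the presence of LPS and holds no response to LPS itself. Nlrp3 encodes an inflammasome sensor; the labels do not say how the knockout was made, how old the mice were, or whether libraries that share a genotype stem from different mice or cultures. The titles number the libraries of each genotype as days 1 to 3, whereas another label gives day 1 for all 6; the numbers are used here only as replicate names. The p-values therefore rest on the spread among libraries, which may be technical only, and if each genotype stems from a single culture, culture and genotype cannot be told apart.

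Metallothioneins are small cytosolic proteins rich in cysteine, whose thiol groups bind zinc and copper and take up cadmium. When free zinc rises in a mouse cell, the zinc finger factor MTF-1 binds metal response elements and raises transcription of Mt1, Mt2 and Slc30a1, the exporter of the plasma membrane, while Slc39a10, an importer, is known in mouse as a gene that MTF-1 represses. Inflammatory signals also act on these genes: Mt1 and Mt2 respond to glucocorticoids and interleukin-6, and Slc39a14 is induced by interleukin-6 in mouse liver during the acute phase response.

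The sequences of the members with the largest differences are shown first, because they hold both the metal-binding and the metal-sensing features of the system. The coding sequences of Mt1 and Mt2 (GENCODE M21, GRCm38, chromosome 8, plus strand, 3 exons each) are given with the codons for cysteine in capitals.
Mt1: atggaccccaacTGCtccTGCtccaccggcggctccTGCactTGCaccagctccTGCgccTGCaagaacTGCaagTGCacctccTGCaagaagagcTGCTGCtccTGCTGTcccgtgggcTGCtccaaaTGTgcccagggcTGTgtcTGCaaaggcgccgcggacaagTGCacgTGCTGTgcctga
Mt2: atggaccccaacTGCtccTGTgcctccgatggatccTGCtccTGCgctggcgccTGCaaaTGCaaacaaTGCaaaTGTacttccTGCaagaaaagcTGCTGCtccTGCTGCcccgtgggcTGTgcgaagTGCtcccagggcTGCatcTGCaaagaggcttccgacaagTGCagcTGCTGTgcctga
Each coding sequence had 61 codons before the stop, of which 20 encode cysteine. The Mt3 coding sequence had 68 codons, also with 20 for cysteine. Mt1 and Mt2 were identical at 79.6% of aligned coding positions, and the longest run of bases shared by their transcripts was 20. How the authors assigned reads that match several genes is not known from the labels.

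The promoter windows of Mt2, Mt1 and Slc30a1, the members that passed the test below, are given from RefSeq (GRCm38.p6), from 250 bases before to 50 after the annotated start. Capitals mark matches to the core of the metal response element, searched on both strands as TGCACNC or TGCGCNC.
Mt2, chr8:94172368-94172667, plus strand: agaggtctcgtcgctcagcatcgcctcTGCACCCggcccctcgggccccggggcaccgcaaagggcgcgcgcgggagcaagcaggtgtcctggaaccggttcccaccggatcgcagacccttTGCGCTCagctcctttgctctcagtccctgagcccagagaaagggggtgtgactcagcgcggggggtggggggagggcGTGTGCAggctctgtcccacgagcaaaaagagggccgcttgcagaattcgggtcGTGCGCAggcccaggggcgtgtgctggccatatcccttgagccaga
Mt1, chr8:94178839-94179138, plus strand: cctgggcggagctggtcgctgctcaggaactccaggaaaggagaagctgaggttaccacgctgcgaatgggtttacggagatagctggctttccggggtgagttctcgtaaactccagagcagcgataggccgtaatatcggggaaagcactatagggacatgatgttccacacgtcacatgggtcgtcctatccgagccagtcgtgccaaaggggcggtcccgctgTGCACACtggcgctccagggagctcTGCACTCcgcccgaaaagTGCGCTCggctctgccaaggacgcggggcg
Slc30a1, chr1:191906531-191906830, plus strand: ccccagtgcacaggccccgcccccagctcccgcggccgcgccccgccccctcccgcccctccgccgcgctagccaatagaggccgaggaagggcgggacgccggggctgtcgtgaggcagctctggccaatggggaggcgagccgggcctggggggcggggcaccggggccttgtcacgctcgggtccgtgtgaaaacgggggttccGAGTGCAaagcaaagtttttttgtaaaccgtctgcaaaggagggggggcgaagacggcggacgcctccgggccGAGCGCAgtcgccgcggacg
The Mt2 window held 4 matches, the Mt1 window 3 and the Slc30a1 window 2. Of 32851 RefSeq windows of 300 bases, 7.11% held 2 or more matches, 1.97% held 3 or more and 0.52% held 4 or more. The window of Slc30a4 held 3 matches, that of Mt3 held 1, and those of Mtf1 and Slc39a10 held 0. Of the pair of windows listed for Slc39a8, the upstream one held 0 and the other 1. Windows were matched for 8 of the 9 members, all but Slc39a14. The same windows were searched on both strands for TGACNNNGC, the antioxidant response element core, which had 1 match each in the Mt2 and Slc30a1 windows and in the upstream window of Slc39a8, against 12.39% of all windows with 1 or more. No match of it, or of the STAT core TTCNNNGAA, overlapped a metal response element match in the members' windows. TTCNNNGAA itself had 1 match, in the window of Slc39a10 farther upstream, and 8.3% of all windows held it. That window starts at 46925727 on chromosome 1, upstream of the gene as counted, which spans 46807544 to 46888070 on the minus strand. The other Slc39a10 window lies within the gene, so no window sits at the upstream end of the gene as counted. Mtf1 and Slc39a10 as counted do not share start and end with GENCODE M21. A match describes letters only and is not evidence of binding. Bases outside these windows were not searched, so a window without a match does not show that the gene lacks the element. Positions and counts hold only for the annotated start used, and further elements of Mt1, Mt2 or Slc30a1 may lie outside their windows.

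**Figure D1:**
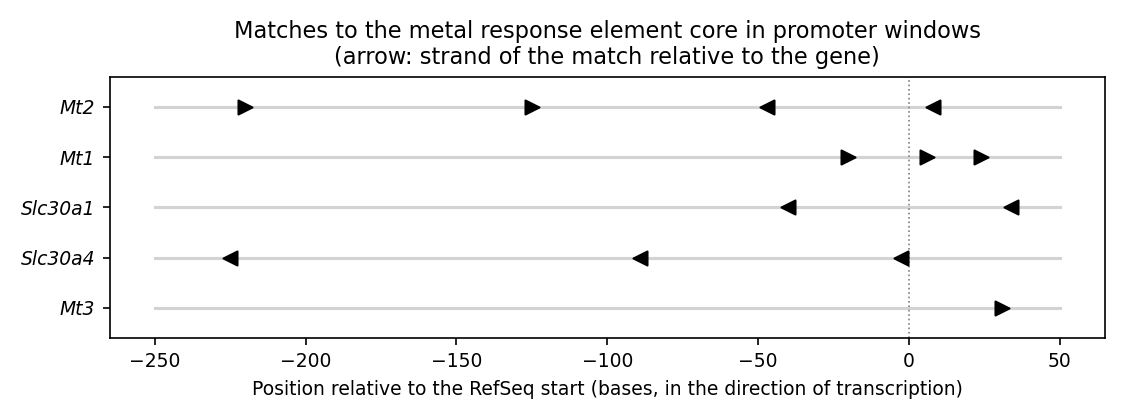
Positions of matches to the metal response element core in RefSeq promoter windows of 5 members, in bases relative to the annotated start; each arrowhead is a match and points along the strand it lies on. Mt2 has 4 matches, Mt1 and Slc30a4 have 3, Slc30a1 has 2 and Mt3 has 1. Slc39a8, which has 1 match in the downstream window of its pair, is not drawn.

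The libraries held between 53.2 and 66.3 M (mega) estimated counts, or about 13.3 to 16.6 M fragments if a fragment is assumed to give 4 counts. Nlrp3 had 0 estimated counts in the 3 knockout libraries and 730, 502 and 444 in the WT libraries (exact two-sided permutation p = 0.1, the smallest possible); it lies on chromosome 11, which holds none of the 9 members. The knockout libraries also held more macrophage marker RNA: of 23 markers listed, 20 were tested and 20 were called higher (limma), with summed FPKM of 1772 to 2019 in knockout and 761 to 865 in WT libraries, and none at 0 in all libraries. Their median difference was 1.06, and of all tested genes 10.4% were called higher and 9.2% lower. Of 17 tested stromal markers 4 were higher and 11 lower, with summed FPKM of 2342 to 2569 in knockout and 3437 to 3806 in WT libraries. Of 6 lymphoid markers 4 were at 0 throughout, and endothelial markers summed to at most 0.15 FPKM. Macrophages and stromal cells are both known to express metallothioneins and Slc30a1, and the level in each cell type was not measured here. The part of the macrophage marker difference in the results that follow was not tested. In bulk RNA a different number of cells and a different level per cell cannot be told apart.

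Mt1 and Mt2 were higher in the knockout cultures by slightly more than a doubling, and Slc30a1 was higher by a smaller step, while the transcript of their regulator Mtf1 stood at the same mean level in both genotypes. Levels are given as FPKM, fragments scaled by transcript length and library depth, as the authors computed them. Differences, knockout minus WT, were taken on log2(FPKM + 1), a scale that shrinks the change of genes at low levels, with limma's standard error (SE) and p-values adjusted over all tested genes by Benjamini-Hochberg. A gene is called at an adjusted p of 0.05. The test covered genes that reached 1 FPKM in 3 or more libraries, which 7 of the 9 members did.

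Of the 7 tested members, 3 were called higher in knockout cultures and 0 lower (limma), next to 10.4% and 9.2% of 12136 tested genes. In either direction this is 42.9% of the tested members against 19.6% of all tested genes. Without adjustment 3 members were higher and 1 lower at a p of 0.05, next to 16.0% and 15.1% of all tested genes. Run on the estimated counts, the quasi-likelihood test of edgeR called 3 members higher and 0 lower of 8 it tested, next to 16.6% of all its genes in either direction, and DESeq2 called 3 higher and 1 lower of 9, next to 16.6% of the 21111 genes with an adjusted p. The values of the genotypes did not overlap for 4 of the 7 tested members, 3 of them higher and 1 lower in knockout cultures, and for 36.7% of all tested genes, 18.8% higher and 18.0% lower. The median difference of the tested members was 0.26, against 0.005 for all tested genes.

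Mt2 had 381, 361 and 416 FPKM in knockout replicates 1, 2 and 3, against 184, 173 and 180.0 FPKM in WT replicates 1, 2 and 3. Every knockout library lay above every WT library. The mean was 386 ± 27.9 FPKM in knockout cultures and 179 ± 5.47 FPKM in WT cultures (SD, n = 3 each), a 2.16-fold ratio. The difference was 1.10 ± 0.083 (SE), with a limma adjusted p of 0.00025. Mt2 (ENSMUSG00000031762, chromosome 8, 94172664 to 94173568, plus strand, GRCm38) encodes one of the major metallothioneins of most tissues.

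Mt1, the other widely expressed metallothionein, lies 5513 bases downstream of Mt2 (ENSMUSG00000031765, chromosome 8, 94179082 to 94180327, plus strand). It had 131, 110.1 and 142 FPKM in knockout replicates, against 58.3, 59.0 and 53.6 FPKM in WT replicates. The genotypes did not overlap, and within the knockout group both genes were lowest in replicate 2 and highest in replicate 3. Mt1 averaged 128 ± 16.2 FPKM in knockout cultures and 56.9 ± 2.94 FPKM in WT cultures (SD, n = 3 each), a 2.24-fold ratio. The difference was 1.14 ± 0.107 (limma adjusted p = 0.000583).

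The ratio of Mt2 to Mt1 FPKM was 2.91, 3.28 and 2.93 in knockout libraries and 3.15, 2.93 and 3.36 in WT libraries, with overlapping ranges. Summed, Mt1 and Mt2 gave 512, 471 and 558 FPKM in knockout libraries and 242, 232 and 234 FPKM in WT libraries. By FPKM, Mt2 ranked between 111 and 114 among the 12136 tested genes in knockout libraries and between 241 and 251 in WT libraries. Mt1 ranked between 313 and 362 in knockout libraries and between 744 and 875 in WT libraries.

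**Figure D2:**
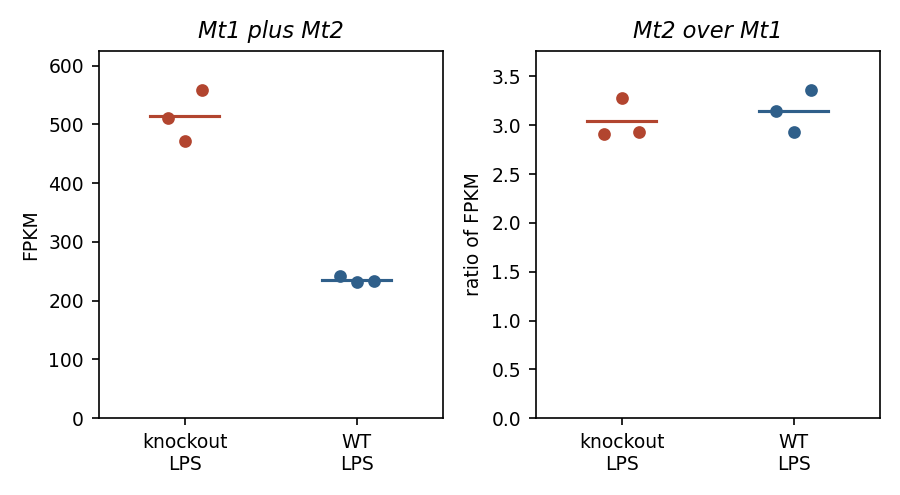
Summed FPKM of Mt1 and Mt2, and the ratio of Mt2 to Mt1 FPKM, in each library, knockout left of WT; points are libraries and bars are means of 3. The sum lies between 471 and 558 FPKM in knockout and between 232 and 242 FPKM in WT libraries, and the ratio overlaps between the genotypes.

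Mt3, a metallothionein known mainly from brain, was near the limit of detection. It had 0.14, 0 and 0.05 FPKM in knockout libraries and 0.11, 0.09 and 0.14 FPKM in WT libraries, from at most 11 estimated counts in any library. A fragment was assumed to give about 4 estimated counts, although only 44.4% of low counts were multiples of 4. On that assumption no library reached a floor of 3 fragments, or 12 counts. Mt3 was below the filter and received no call. The neighbouring Mt4, known from squamous epithelium, had 0.31, 0 and 0.14 FPKM in knockout libraries and was listed at 0 in all WT libraries.

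**Figure D3:**
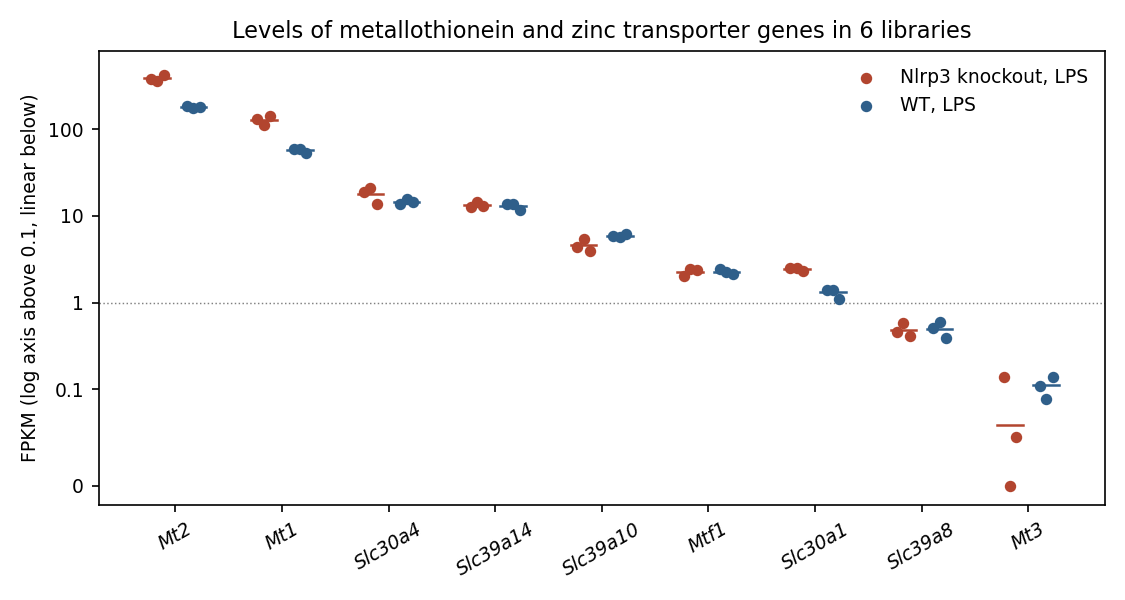
FPKM of the 9 genes in each library, knockout left of WT, on an axis that is logarithmic above 0.1 and linear below; points are libraries, bars are means of 3, and the dotted line is the filter of 1 FPKM. Mt2, Mt1 and Slc30a1 lie higher in all 3 knockout libraries than in any WT library, Slc39a10 lies lower, and the other genes overlap.

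Mtf1 had 2.02, 2.42 and 2.34 FPKM in knockout libraries and 2.42, 2.24 and 2.11 FPKM in WT libraries, which overlap over most of their range. The mean was 2.26 ± 0.212 FPKM in knockout cultures and 2.26 ± 0.156 FPKM in WT cultures (SD, n = 3 each). The 95% interval of the difference ran from -0.21 to 0.21 (limma adjusted p = 0.997). The 3′ end of Mtf1 overlaps 1110065P20Rik on the other strand, which had 2.99, 1.2 and 3.09 FPKM in knockout libraries and 1.84, 2.58 and 4.01 FPKM in WT libraries, between 49.6% and 190.0% of the level of Mtf1. The labels do not say whether counting used the strand, so the values of Mtf1 may hold reads of its neighbour. MTF-1 is controlled largely by zinc binding to its protein, which transcript levels do not show.

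Among exporters, Slc30a1 rose. It encodes ZnT1, which carries zinc out across the plasma membrane. Slc30a1 (ENSMUSG00000037434, chromosome 1, 191906767 to 191913247, plus strand) had 2.53, 2.50 and 2.32 FPKM in knockout libraries and 1.41, 1.41 and 1.10 FPKM in WT libraries. The genotypes did not overlap. It averaged 2.45 ± 0.114 FPKM in knockout cultures and 1.31 ± 0.179 FPKM in WT cultures (SD, n = 3 each), a 1.88-fold ratio of means. On the log2(FPKM + 1) scale the difference was 0.58 ± 0.09 (limma adjusted p = 0.00488). The estimated counts, which carry no added 1, gave a log2 fold change of 0.88 (edgeR adjusted p = 0.00417).

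Slc30a4, which encodes ZnT4 of endosomes and secretory vesicles and is mutated in the lethal milk mouse, was spread widely in the knockout group. It had 18.7, 20.8 and 13.8 FPKM in knockout libraries and 13.8, 15.5 and 14.3 FPKM in WT libraries. Knockout replicates 1 and 2 lay above all WT libraries and replicate 3 lay among them. The difference was 0.26, with a 95% interval from -0.09 to 0.61 (limma adjusted p = 0.289), and the gene was called higher (0.42, adjusted p = 0.0194) when knockout replicate 3 was left out.

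No importer was called. Slc39a10, which encodes ZIP10 of the plasma membrane, was lower in each knockout library than in any WT library, without passing the test. It had 4.37, 5.33 and 3.97 FPKM in knockout libraries and 5.88, 5.71 and 6.16 FPKM in WT libraries. The difference was -0.32 ± 0.104, with a 95% interval from -0.57 to -0.07, an unadjusted p of 0.0187 and a limma adjusted p of 0.0803. The edgeR adjusted p was 0.0641 and the DESeq2 adjusted p was 0.0435, and without knockout replicate 2 the limma difference was -0.42 (adjusted p = 0.0236).

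Slc39a14, which encodes ZIP14, an importer of zinc, manganese and iron, had 12.5, 14.5 and 13.0 FPKM in knockout libraries and 13.5, 13.7 and 11.7 FPKM in WT libraries. The ranges overlapped, and the 95% interval of the difference ran from -0.18 to 0.25 (limma adjusted p = 0.834). Slc39a8 encodes ZIP8, an importer whose gene is known as an NF-κB target in human monocytes. It stood below the filter, with 0.46, 0.58 and 0.41 FPKM in knockout libraries and 0.51, 0.59 and 0.39 FPKM in WT libraries, from 175 to 335 estimated counts per library. Without the filter its difference was -0.01 (limma adjusted p = 0.946). Gm43429, within Slc39a8 on the same strand, stood at up to 54.2% of its level, and Gm28151, within Slc39a10 on the same strand, at up to 16.6% of the level of that gene, so that these levels are uncertain by reads the genes share.

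The order of the mean levels was nearly the same in the genotypes. In knockout cultures it ran Mt2, Mt1, Slc30a4, Slc39a14, Slc39a10, Slc30a1, Mtf1, Slc39a8 and Mt3, and the ranges of the neighbours Slc30a4 and Slc39a14, and of Slc30a1 and Mtf1, overlapped. In WT cultures Mtf1 stood above Slc30a1, and no neighbouring ranges overlapped. The exporter Slc30a1, at 2.45 FPKM, thus exceeded Mtf1, at 2.26 FPKM, only in the knockout mean, within the spread of the libraries.

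Of the remaining zinc transporters 1 of 11 tested was called, next to 19.6% of all tested genes. Of 8 other Slc30 genes, 4 were tested and 0 were called by limma, with 0 at an unadjusted p of 0.05 and 0 called by edgeR or DESeq2. They serve organelles: Slc30a5 had 6.93 FPKM in knockout and 7.39 in WT cultures, its partner Slc30a6 had 5.76 and 6.14, Slc30a7 of the Golgi had 4.87 and 4.79, and Slc30a9 of mitochondria had 5.75 and 5.18, in the same order of genotypes. Slc30a8, the transporter of insulin granules, was listed at 0 in all 6 libraries.

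Of 11 other Slc39 genes, 7 were tested, 1 was called higher and 0 lower by limma. At an unadjusted p of 0.05, 2 were higher and 1 lower, and edgeR and DESeq2 each called 1 higher and 0 lower. The gene called was Slc39a13, which encodes ZIP13, an importer into the cytosol from the secretory pathway that connective tissue development requires. It had 19.5, 18.5 and 19.3 FPKM in knockout libraries and 15.7, 15.1 and 15.9 FPKM in WT libraries, a difference of 0.28 ± 0.059 (limma adjusted p = 0.0189). This call was lost without knockout replicate 1 (adjusted p = 0.0817) and without WT replicate 1, 2 or 3 (0.0807, 0.0822 and 0.0624).

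The most abundant importer transcripts overall lay outside the 9 members. Slc39a1, an importer of the plasma membrane, averaged 75.8 ± 7.28 FPKM in knockout and 88.4 ± 2.91 FPKM in WT cultures (difference -0.22, limma adjusted p = 0.13), and was called lower without knockout replicate 3 (-0.30, adjusted p = 0.0231). Slc39a7, which releases zinc from the endoplasmic reticulum, averaged 59.9 ± 1.45 in knockout and 58.9 ± 2.56 FPKM in WT cultures (adjusted p = 0.834). Slc39a6 averaged 23.3 ± 0.511 in knockout and 20.9 ± 0.232 FPKM in WT cultures (0.15, adjusted p = 0.113). Slc39a11 had 8.64 FPKM in knockout and 7.83 in WT cultures, and Slc39a3 had 6.60 and 6.80 in the same order. Slc39a9 was variable, as given in the closing observations.

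**Figure D4:**
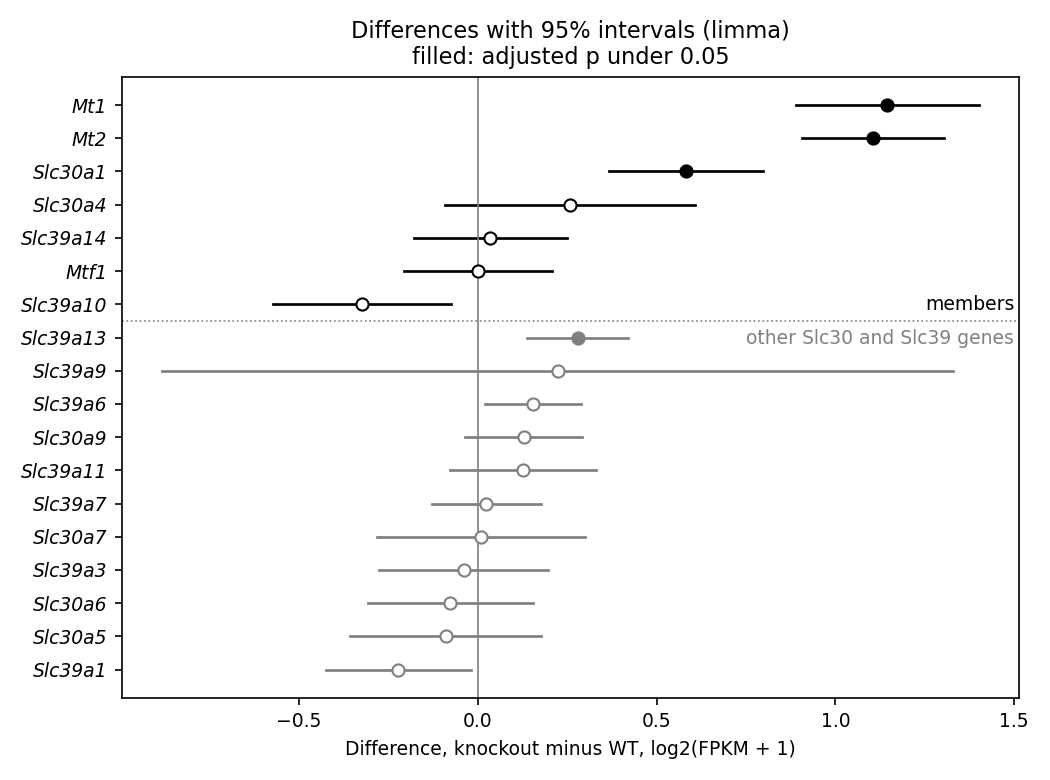
Differences on the log2(FPKM + 1) scale, knockout minus WT, with 95% intervals from limma, for the 7 tested members (black) and 11 other tested Slc30 and Slc39 genes (grey); filled points have an adjusted p under 0.05. Mt1 at 1.14, Mt2 at 1.10 and Slc30a1 at 0.58 stand apart on the right, Slc39a13 at 0.28 is the only filled grey point, and the point lowest in value is Slc39a10 at -0.32.

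Of 5 other genes known to respond to MTF-1 in mouse, 3 were tested. Of these, 1 was called higher and 0 lower (limma), next to 10.4% and 9.2% of all tested genes. Csrp1, which encodes a LIM domain protein also found in smooth muscle, was called higher with 296 ± 32 FPKM in knockout and 184 ± 5.99 FPKM in WT cultures (0.68, limma adjusted p = 0.00374). Selenow, a selenoprotein gene, had 419 ± 52.8 in knockout and 445 ± 11.4 FPKM in WT cultures, and Ndrg1 had 14.4 in knockout and 14.7 in WT cultures. The median difference of the 3 was -0.03, against 0.005 for all tested genes. Of 7 tested genes of copper handling, with a list median of 0.15, 1 was called higher and 0 lower, next to the same shares. This was Slc31a2, a copper transporter of intracellular membranes, at 17.5 ± 0.538 FPKM in knockout and 11.1 ± 0.547 FPKM in WT cultures (0.61, limma adjusted p = 0.00106).

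Genes of metal and oxidant stress split. Of 10 tested, 4 were called higher and 2 lower, next to 10.4% and 9.2% of all tested genes. The list median was 0.19. The cystine importer Slc7a11 had 3.00 ± 0.856 FPKM in knockout and 0.997 ± 0.0839 FPKM in WT cultures (0.98, limma adjusted p = 0.00734). Hmox1, heme oxygenase, had 210 ± 20.8 in knockout and 118 ± 6.63 FPKM in WT cultures (0.83, adjusted p = 0.0014), and Txnrd1, thioredoxin reductase, had 53.8 in knockout and 32.3 in WT cultures (0.72, adjusted p = 0.000388). The heat shock gene Hspa1a, which shares sequence with Hspa1b and is therefore uncertain, was lower at 6.91 FPKM in knockout and 10.8 in WT cultures (-0.58, adjusted p = 0.0158). Its call was lost without knockout replicate 1 (0.0629) and without WT replicate 2 or 3 (0.0505 and 0.0583).

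Of 7 tested targets of the glucocorticoid receptor, 4 were called higher and 1 lower, next to 10.4% and 9.2% of all tested genes. The list median was 0.33. Dusp1, a MAP kinase phosphatase, had 23.8 ± 0.682 FPKM in knockout and 12.9 ± 0.898 FPKM in WT cultures (0.84, limma adjusted p = 0.000388), and Pdk4, a pyruvate dehydrogenase kinase, had 22.1 in knockout and 14.5 in WT cultures (0.57, adjusted p = 0.00167). Tsc22d3, which encodes GILZ, had 7.29 in knockout and 5.01 in WT cultures (0.46, adjusted p = 0.0181), a call lost without knockout replicate 1 (0.0626) and WT replicate 1 or 3 (0.0744 and 0.0728). Fkbp5, a cochaperone of the receptor, went the other way with 4.99 FPKM in knockout and 7.83 in WT cultures (-0.56, adjusted p = 0.00291).

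Genes of the interleukin-6 and STAT3 axis moved in both directions. Of 8 tested, 2 were called higher and 3 lower, next to 10.4% and 9.2% of all tested genes, with a list median of -0.06. The receptor subunit Il6st, which encodes gp130, had 45.03 ± 2.27 FPKM in knockout and 96.9 ± 5.11 FPKM in WT cultures (-1.09, limma adjusted p = 0.000143), and Bcl3 had 14.1 in knockout and 21.01 in WT cultures (-0.54, adjusted p = 0.00427). The acute phase genes Lcn2, at 263 ± 32.3 in knockout and 87.6 ± 6.7 FPKM in WT cultures (1.57, adjusted p = 0.000188), and Saa3, at 1007 ± 149 in knockout and 643 ± 87.2 FPKM in WT cultures (0.64, adjusted p = 0.0317), were higher. Saa3 was not called without knockout replicate 1 or 3 (0.122 and 0.0649) or WT replicate 2 or 3 (0.111 and 0.105).

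The genes most like Mt2 over the 6 libraries, by the distance between log2(FPKM + 1) profiles centred on their own means, were Hcls1 (distance 0.043), Cfp (0.059) and Fstl3 (0.066). Hcls1, a cytoskeletal adaptor of blood cells, had 38.1 FPKM in knockout and 17.4 in WT cultures. Cfp, the complement regulator properdin, had 72.5 FPKM in knockout and 33.4 in WT cultures, and Fstl3, a secreted activin antagonist, had 22.7 and 9.74 in the same order. For Slc30a4 the nearest genes were Pik3r1, Rdx and Hspa13 (0.043, 0.056 and 0.08), and for Slc39a14 they were Fam219a, Necap1 and Atxn7l1 (0.055, 0.066 and 0.066). The likeness was measured over 6 libraries that fall into 2 groups, and says nothing of shared function.

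The metallothionein cluster was compared with its surroundings, in a window chosen after the values were seen. The cluster from Mt4 to Mt1 spans 43.1 kb, and 15 other genes within 500 kb of it were tested, with a median difference of -0.06. Of these, 3 were called higher and 0 lower by limma, next to 10.4% and 9.2% of all tested genes. Herpud1, a gene of endoplasmic reticulum stress, had 44.6 FPKM in knockout and 30.4 in WT cultures (0.53, limma adjusted p = 0.00773), and Gnao1, a G protein subunit, had 2.98 and 2.20 in the same order (0.31, adjusted p = 0.0232). The third, Gm45774, overlaps Mt2 on the other strand, with 10.9 FPKM in knockout and 4.84 in WT cultures (1.03, adjusted p = 0.00162). Its level was 2.61% to 3.06% of that of Mt2 in knockout libraries and 2.26% to 2.98% in WT libraries. As for Mtf1, it is not known whether counting used the strand, so the values of Mt2 and Gm45774 may hold reads of each other. Bbs2 and Nup93, which flank the cluster on either side, had 2.06 and 20.2 FPKM in knockout cultures, against 2.62 and 21.1 FPKM in WT cultures, and were not called.

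**Figure D5:**
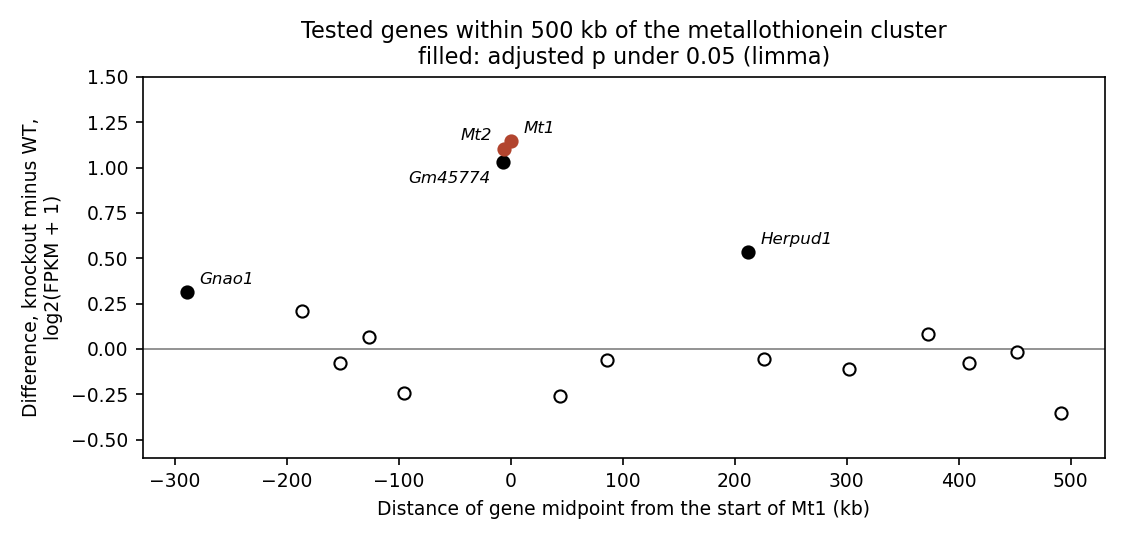
Difference between knockout and WT, on the log2(FPKM + 1) scale, of tested genes within 500 kb of the metallothionein cluster, by the distance of each gene's midpoint from the start of Mt1; filled points have an adjusted p under 0.05. Mt1, Mt2 and the overlapping Gm45774 lie between 1.03 and 1.14, Herpud1 at 0.53 and Gnao1 at 0.31, and the other 12 genes were not called.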

How the data were processed

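Polyadenylated RNA was sequenced in 6 strand-marked (dUTP) libraries, per the labels' protocols. Per the submitters' processing notes, cutadapt 1.9, HISAT2 2.0.4, StringTie 1.3.4d and the build GRCm38 were used; no source used here gives the counting step, annotation release or filters. The authors deposited FPKM values to 2 decimals and estimated counts per gene. The estimated counts, as deposited, are whole numbers: over 5837 abundant genes, once a factor for each gene was taken out, 100% of ratios of count to FPKM deviated by under 1% from one factor for each library, and 44.4% of values from 1 to 16 were multiples of 4.

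Limma 3.58.1 (R 4.3.3) was applied to log2(FPKM + 1) of genes reaching 1 FPKM in 3 or more libraries (intensity trend, genotype as sole term, two-sided, Benjamini-Hochberg over all 12136 genes, threshold 0.05). Alternatives were a pseudocount of 0.1, no filter, TMM-scaled FPKM, edgeR 4.0.16 and DESeq2 1.42.0 on rounded estimated counts, a replicate block, and leaving out each library. Members and lists were chosen with earlier results of these data known. Genes named beyond the members are the tested genes of the zinc transporter and MTF-1 lists, up to 4 called genes with the largest differences from each other list, and the 3 nearest profiles per class; marker lists, neighbours of the cluster, Mt4 and Slc30a8 were named after their values were seen. Promoter windows and coordinates share GRCm38. Libraries are named by the replicate number in their titles.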

Additional observations from a re-analysis of the deposited data

How the results depend on the processing

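Mt1, Mt2 and Slc30a1 were called higher in all 12 alternatives, with differences of 1.06 to 1.25, 1.05 to 1.15 and 0.52 to 0.89. These ranges mix scales. For Slc30a1, leaving out libraries on log2(FPKM + 1) gave 0.517 to 0.616. The higher values came from a pseudocount of 0.1 (0.865), edgeR (0.884) and DESeq2 (0.889). The order of the 9 mean levels was the same with TMM-scaled FPKM (9 of 9 ranks). The TMM factors, 0.986 to 1.02, were too alike to change that order, so this comparison could not have come out otherwise. DESeq2 called 1 member lower, Slc39a10, and 1680 genes lower in all. Leaving out each library, genes called higher ranged from 705 (without knockout replicate 1) to 1464 and genes called lower from 583 (without WT replicate 1) to 1281, with 675 and 640 without WT replicates 2 and 3; members called higher ranged from 3 to 4 and members called lower from 0 to 1. Mtf1 changed sign to -0.014 with TMM-scaled FPKM, -0.016 in edgeR and -0.011 in DESeq2, and Slc30a7 to -0.009 with TMM-scaled FPKM; neither was called. With libraries left out, differences that crossed 0 ranged from -0.035 to 0.055 for Mtf1, -0.031 to 0.077 for Slc39a14, -0.157 to 0.029 for Slc30a5, -0.085 to 0.13 for Slc30a7, -0.119 to 0.019 for Slc39a3, -0.144 to 0.671 for Slc39a9, -0.079 to 0.009 for Ndrg1, -0.031 to 0.064 for Necap1, -0.045 to 0.072 for Atxn7l1 and -0.005 to 0.094 for Fam219a. The causes of these changes were not tested. Pik3r1, Rdx and Hspa13 were called only without knockout replicate 3 (0.417, 0.381 and 0.38). Without the filter Saa3 was not called (adjusted p = 0.0961). With a replicate block, 1106 genes were higher and 980 lower, 3 members were higher and 0 lower, and Tsc22d3 and Hspa1a were not called (0.0618 and 0.0503). Deviations of libraries with the same number correlated at 0.02, 0.168 and 0.096, and those with different numbers at -0.171 to 0.081. These values do not settle whether the number pairs libraries, and the main fit used no pairs. Low levels limit Mt3 and Slc39a8.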

Other observations

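Slc39a9, which encodes ZIP9 of the Golgi, was lowest in replicate 2 of both genotypes, with 5.18, 1.51 and 5.55 FPKM in knockout replicates 1, 2 and 3 and 3.74, 1.40 and 4.61 FPKM in WT replicates 1, 2 and 3. The sulfiredoxin gene Srxn1 stood at 6.49 FPKM in knockout replicate 2, against 35.7 and 40.8 FPKM in the other knockout libraries and 29.1 to 33.1 FPKM in WT libraries. Neither gene was called (limma adjusted p = 0.788 and 0.642), and both were singled out after their values were seen.

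Il6 itself had 45.01, 44.9 and 24.8 FPKM in knockout libraries and 27.1, 30.1 and 32.8 FPKM in WT libraries, with overlapping ranges (limma adjusted p = 0.445). Within the knockout group, replicate 3 was the lowest for Il6 and Slc30a4 and the highest for Mt1 and Mt2. The heat shock gene Hspb1 had 53.4, 47.6 and 67.1 FPKM in knockout libraries and 43.6, 45.9 and 49.3 FPKM in WT libraries, and was also highest in knockout replicate 3 (adjusted p = 0.241). Both genes were picked out once their values were known.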
